A study of Mus musculus with 7 samples.

Results

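A set of 10 genes of corticosteroid signalling was followed in RNA-seq of cells labelled astrocytes from the amygdala of stressed mice. They were taken by symbol from the deposited count table, which holds 35976 genes, and all 10 were found there. They comprise the 2 receptors (Nr3c1 and Nr3c2), a pair of receptor co-chaperones (Fkbp4 and Fkbp5), a steroid-activating enzyme (Hsd11b1) and the direct targets Sgk1, Zbtb16, Klf9, Pdk4 and Plin4. Fkbp5 is itself a target, so that 6 of the 10 were counted as targets.

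Corticosterone, the adrenal stress hormone of the mouse, crosses cell membranes and binds the glucocorticoid receptor (GR, Nr3c1) and the mineralocorticoid receptor (MR, Nr3c2). Unliganded receptor is held in the cytoplasm by heat shock protein 90 and its co-chaperones. With hormone bound it enters the nucleus and binds glucocorticoid response elements, inverted repeats of a short half-site, near its target genes. In the brain MR has the higher affinity for corticosterone and GR is engaged mainly at stress levels of the hormone, and astrocytes express both.

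All samples came from male C57BL/6J mice whose amygdala had been transduced with adeno-associated virus, with Cas9 driven by the astrocyte promoter GfaABC1D and a guide RNA to either Egfr (sgEgfr) or the Rosa locus (sgRosa, the control; sgRosa26 in the genotype label). Every mouse, controls included, had more than 2 weeks of viral expression and then tube restraint on 7 days, followed by fear conditioning (1 day) and its extinction (3 days), so the series holds no unstressed group. The ages of the mice and the hour of collection are not given in the sources used here. Cells were enriched with anti-ACSA-2 beads after papain digestion, and 5 ng of total RNA went into each library.

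There were 4 sgRosa and 3 sgEgfr libraries of 5852870 to 22579222 counts, in which 3 counts correspond to 0.513 and 0.133 CPM (a count divided by the library total and scaled to a common total, so that libraries of different depth compare). Counts of sgRosa 3 and sgRosa 4 were almost identical but for sampling noise (chi-square per degree of freedom 1.04, against 14.8 to 158 in the 20 other pairs). Their counts were added and treated as 1 sample, sgRosa 3+4, leaving 3 samples per guide. No label ties a library to its own mouse, so the p-values below measure the spread between these samples, which may be technical. The targeted gene Egfr had a log2 fold change of -0.13 (95% confidence interval -1.39 to 1.14). Its counts were 55 to 188 in sgRosa and 87 to 184 in sgEgfr. An edit by Cas9 need not lower the mRNA, and whether Egfr was edited in these cells was not tested. All 15 astrocyte markers were detected, at 5644 to 13645 summed CPM in sgRosa and 8696 to 12127 in sgEgfr, but the 14 oligodendrocyte markers, also all detected, summed to more in every sample (72856 to 108581 and 81763 to 144254 CPM). In such a mixture fewer cells of a type and less RNA per cell cannot be told apart.

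No member was called different between the guides by edgeR's quasi-likelihood test. All 10 passed the filter on low counts, 0 of 10 were called, and the adjusted p was 0.997 for each, in a comparison where 0% of the 14936 genes tested were called. Positive log2 fold changes (higher in sgEgfr) were found for 8 of 10 members, among them all 6 targets, against 52.9% of all genes. Their median was 0.42 over the 10 members and 0.60 over the targets, against 0.02 over all genes. Without the sample sgRosa 1 these medians were 0.24 for the members and 0.31 for the targets, and without sgRosa 2 they were 0.46 and 1.04. At an unadjusted p under 0.05 stood 2 members, Zbtb16 and Plin4, beside 2.68% of all genes. Levels below are CPM scaled with the TMM method, given for sgRosa 1, 2 and 3+4 and then for sgEgfr 1, 2 and 3.

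**Figure D1:**
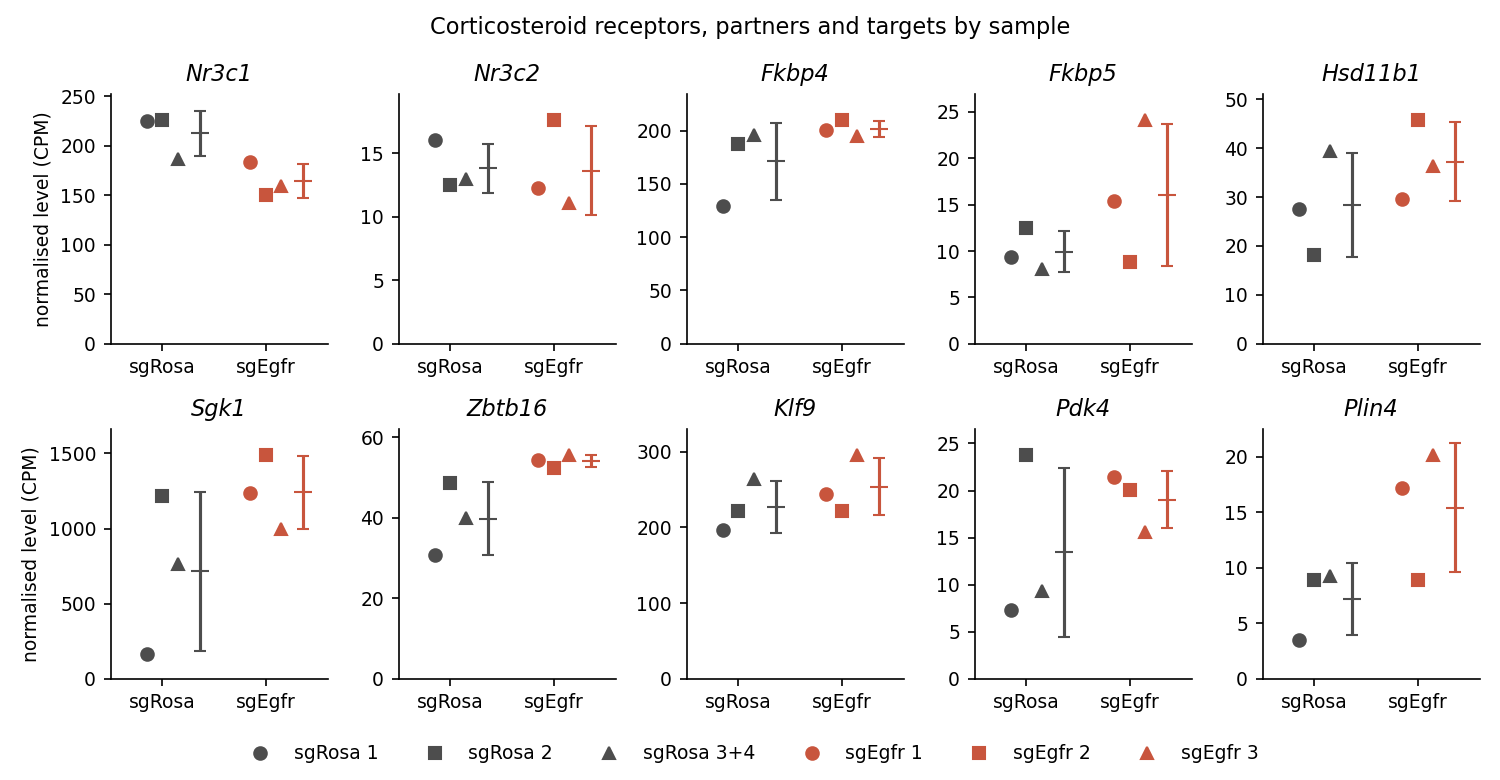
Normalised level (CPM, linear axes from 0) of the 10 genes in the 3 sgRosa samples (grey) and the 3 sgEgfr samples (red). Horizontal ticks with bars are the mean ± SD (n = 3), and equal symbols share a number, which no label calls a pair. The sgRosa 1 point is the lowest for Sgk1 (164 CPM), Plin4 (3.46), Pdk4 (7.27), Zbtb16 (30.7), Klf9 (196) and Fkbp4 (130).

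Nr3c1, the glucocorticoid receptor gene, was the member with the largest negative fold change. It lies on chromosome 18 (39410545 to 39519421, minus strand, GRCm38) and stood at 225, 226 and 186 CPM in sgRosa and at 183, 150 and 159 CPM in sgEgfr. Every sgEgfr sample thus lay under every sgRosa sample, though sgRosa 3+4 and sgEgfr 1 were nearly level. The fitted log2 fold change came to -0.37 (SE 0.16, 95% confidence interval -0.75 to 0.01). Of all genes tested, 3.85% had groups that did not overlap in this direction. The separation depended on the scaling: as CPM of library totals, sgEgfr 1 (193.0) stood above sgRosa 3+4 (185.9).

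Nr3c2, the mineralocorticoid receptor gene (chromosome 8, 76899442 to 77245012, plus strand), had fewer counts in every library and did not follow Nr3c1. It was found at 16.02, 12.5 and 12.97 CPM in sgRosa and 12.2, 17.6 and 11.1 CPM in sgEgfr. The highest and the lowest value were both from sgEgfr samples. Its log2 fold change of -0.02 (95% confidence interval -0.62 to 0.58) left room for differences in either direction. Its sign turned when sgRosa 1 (0.10), sgEgfr 1 (0.05) or sgEgfr 3 (0.11) was left out. Exons of Nr3c2 share 247 bases with the antisense transcript Gm10649, which had 8 counts over all libraries.

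The ratio of the 2 receptors sets GR transcripts against MR transcripts within a library, so it needs no scaling between libraries. There were 14.1, 18.1 and 14.3 Nr3c1 counts per Nr3c2 count in sgRosa 1, 2 and 3+4, and 14.98, 8.52 and 14.4 in sgEgfr 1, 2 and 3. The 2 libraries behind sgRosa 3+4 gave 15.4 and 12.8. A single sample, sgEgfr 2, stood apart: its exact counting interval (95%, 7.50 to 9.70) lay below those of all other libraries, the next lowest of which began at 10.2. It had both the lowest Nr3c1 and the highest Nr3c2 level of the 6 samples. The mean log2 ratio was 3.94 ± 0.20 in sgRosa and 3.61 ± 0.45 in sgEgfr (SD, n = 3 each), a difference of -0.33 (exact two-sided permutation p = 0.6, where 0.1 is the smallest p that this design can give). The difference was -0.07 without sgEgfr 2 and -0.21 without sgRosa 2. Divided by exonic length (7.684 kb for Nr3c1 and 6.474 kb for Nr3c2 in GENCODE M21), the ratio ran from 7.18 in sgEgfr 2 to 15.2 in sgRosa 2, so that Nr3c1 transcripts outnumbered Nr3c2 transcripts in every sample. Intervals of this kind cover counting error only.

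**Figure D2:**
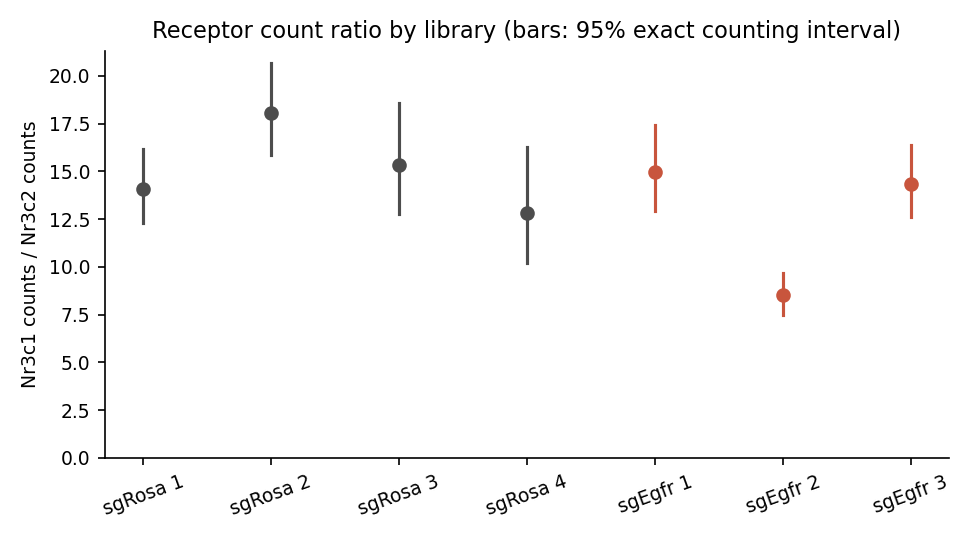
Counts of Nr3c1 divided by counts of Nr3c2 in each of the 7 libraries (points), with exact 95% counting intervals (bars), grey for sgRosa and red for sgEgfr. The sgEgfr 2 library, at 8.52, lies under the other 6, which run from 12.8 to 18.1.

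Fkbp4 and Fkbp5 encode FKBP52 and FKBP51, related immunophilins that compete for the receptor complex; FKBP52 favours its transport to the nucleus and FKBP51 lowers its affinity for hormone. Fkbp4 (chromosome 6, 128429735 to 128438677, minus strand) stood at 130, 188 and 196 CPM in sgRosa and 200, 210 and 195 CPM in sgEgfr. The samples were close to one another apart from sgRosa 1, and the log2 fold change of 0.24 (95% confidence interval -0.21 to 0.68) was 0.07 without that sample. Fkbp5 (chromosome 17, 28399094 to 28517527, minus strand), which carries response elements in its introns and whose protein closes a feedback loop on GR, stood at 9.32, 12.4 and 8.08 CPM in sgRosa. In sgEgfr it stood at 15.3, 8.84 and 24.1 CPM. The sgEgfr 1 and sgEgfr 3 samples thus exceeded all controls, while sgEgfr 2 lay among them. The fitted log2 fold change came to 0.69 (SE 0.39, 95% confidence interval -0.20 to 1.59), and 0.28 without sgEgfr 3.

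Hsd11b1 encodes the enzyme that regenerates active corticosterone from its inert 11-keto form inside cells (chromosome 1, 193221634 to 193264075, minus strand). Its levels were 27.6, 18.2 and 39.5 CPM in sgRosa and 29.7, 45.7 and 36.3 CPM in sgEgfr, with overlapping groups. The log2 fold change of 0.39 (95% confidence interval -0.30 to 1.08) ranged from 0.15 without sgRosa 2 to 0.71 without sgRosa 3+4. Hsd11b2, the gene of the inactivating enzyme, had 0 counts in all 4 sgRosa libraries and 3, 3 and 10 counts in sgEgfr 1 to 3, too few to be tested. Of the 9 listed genes of corticosteroid metabolism and transport 5 were tested, 2 with positive and 3 with negative fold changes and 0 called. Their median log2 fold change was -0.04, and its sign turned with the samples and the filter. Without sgEgfr 3 there were 4 positive and 1 negative values (median 0.11), without sgRosa 1 or sgRosa 3+4 4 and 2 (0.09 and 0.10), without sgRosa 2 3 and 3 (0.10), and with no filter on low counts 5 and 3 (0.50). Abcb1a, the gene of a drug exporter of the blood-brain barrier that also exports steroids, stood at 5.15, 1.15 and 1.40 CPM in sgRosa and 3.61, 4.97 and 5.12 CPM in sgEgfr. Cyp11b1, which makes corticosterone in the adrenal gland, had 0 counts in all 7 libraries, which allows up to 0.133 CPM in the deepest of them.

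Sgk1, a kinase gene under direct control of GR and MR that acts on ion channels and transporters (chromosome 10, 21882184 to 21999903, plus strand), was the most abundant target and the most variable member. It stood at 164, 1218 and 766 CPM in sgRosa and 1236, 1487 and 1000 CPM in sgEgfr. One sample stood apart, sgRosa 1, which was 4.68-fold lower than the next lowest, and the other 5 samples of both guides overlapped. Between the highest and the lowest sample Sgk1 differed 9.09-fold, a span reached by 3 of the 1623 genes with a mean of at least 100 CPM, Sgk1 included (0.185%); their median span was 1.59-fold. Its log2 fold change of 0.79 (SE 0.61, 95% confidence interval -0.63 to 2.22) was 0.32 without sgRosa 1, 1.42 without sgRosa 2, 1.24 with limma-voom and 1.70 with its quality weights, never with a call.

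The sequence before one of its start sites shows what the letters of a response element look like. The RefSeq promoter table (GRCm38.p6, 250 bases before to 50 bases after each start) held windows for 8 members (Hsd11b1, Pdk4, Fkbp4, Nr3c2, Sgk1, Fkbp5, Plin4 and Klf9), 6 of the 13 windows being starts of Sgk1. They were searched on both strands for the half-site AGAACA, whose reverse complement is TGTTCT, and for the full element, AGAACA and TGTTCT separated by 3 bases, with up to 2 of its 12 fixed bases different. Any full element without differences also counts as a pair of half-sites. The window at chr10:21993640-21993939 (plus strand) held the full element with 0 differences at 21993701 to 21993715, positions -189 to -175 from the start, and 1 more half-site near its upstream end. It is printed because Sgk1 had the widest span of the members and was the only one with a full element in these windows; capitals mark the half-sites and the element.
Sgk1 window: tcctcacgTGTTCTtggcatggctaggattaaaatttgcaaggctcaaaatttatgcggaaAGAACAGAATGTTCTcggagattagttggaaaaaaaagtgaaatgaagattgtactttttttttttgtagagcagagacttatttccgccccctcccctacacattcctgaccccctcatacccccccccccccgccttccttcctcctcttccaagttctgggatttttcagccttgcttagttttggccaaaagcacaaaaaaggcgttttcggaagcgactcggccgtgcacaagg

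An exact element was found in 3 of the 32851 windows searched, and one with up to 2 differences in 606 (1.84%). Half-sites alone were common, in 18.97% of all windows searched (21.3% of genes). They were found in 3 of the 13 windows of members, all of them starts of Sgk1. Another start of Sgk1 had an element with 2 differences, and among the 35 other glucocorticoid response genes with a window the same held for Sult1a1 and Fam107a. These stretches are given for comparison with the exact element, capitals marking its 15 positions including the spacer, on the strand of the gene:
Sgk1, exact: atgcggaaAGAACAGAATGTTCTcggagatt
Sgk1, other start: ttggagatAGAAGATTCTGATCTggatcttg
Sult1a1: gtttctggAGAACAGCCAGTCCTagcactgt
Fam107a: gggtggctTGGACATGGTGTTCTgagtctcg
Such matches describe the letters of a window and say nothing of receptor binding in these cells. The genes with these matches had unlike values, with log2 fold changes of 0.79 for Sgk1, 0.34 for Sult1a1 (a sulfotransferase gene) and -0.62 for Fam107a (an actin-associated stress gene), 0 of them called.

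Zbtb16, the gene of the zinc finger repressor PLZF and a sensitive GR target (chromosome 9, 48654297 to 48836222, minus strand), stood at 30.7, 48.6 and 40.0 CPM in sgRosa and 54.2, 52.4 and 55.4 CPM in sgEgfr. All sgEgfr samples lay above all controls and close to one another (54.0 ± 1.51 CPM against 39.8 ± 8.95; SD, n = 3). The fitted log2 fold change came to 0.44 (SE 0.19, 95% confidence interval 0.01 to 0.88), and 0.29 without sgRosa 1. Groups that did not overlap in this direction were found for 3.76% of all genes. As CPM of library totals they did overlap, since sgEgfr 2 (46.9) was then below sgRosa 2 (50.7). The sgEgfr samples were also less close to one another on library totals, at 57.1, 46.9 and 56.2 CPM. On that scale 0 of the 10 members had groups that did not overlap, against 2 of 10 (Zbtb16 higher, Nr3c1 lower) with TMM scaling.

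Plin4, which encodes a lipid droplet coat protein (chromosome 17, 56100591 to 56109803, minus strand), had the largest fold change of the members at a low level. It stood at 3.46, 8.88 and 9.28 CPM in sgRosa and 17.2, 8.90 and 20.1 CPM in sgEgfr. Here sgEgfr 1 and 3 were above all controls, while sgEgfr 2 lay between sgRosa 2 and sgRosa 3+4. The fitted log2 fold change came to 1.09 (SE 0.46, 95% confidence interval 0.03 to 2.16) and went down to 0.76 without sgRosa 1. The order of samples resembled that of Fkbp5 in that sgEgfr 3 and sgEgfr 1 were the top samples for both genes.

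Klf9, a Krüppel-like transcription factor gene that GR switches on in neurons and glia (chromosome 19, 23141226 to 23168134, plus strand), was among the steadiest members. Its levels were 196, 222 and 264 CPM in sgRosa and 244, 222 and 295 CPM in sgEgfr. The groups overlapped, and the log2 fold change was 0.16 (95% confidence interval -0.28 to 0.60), and ranged from 0.03 without sgEgfr 3 to 0.28 without sgRosa 3+4. Pdk4 encodes a mitochondrial kinase that turns cells from glucose to fatty acid oxidation (chromosome 6, 5483351 to 5496309, minus strand). It stood at 7.27, 23.7 and 9.35 CPM in sgRosa and 21.4, 20.03 and 15.6 CPM in sgEgfr. Its highest value was thus from a control, sgRosa 2, with the other 2 controls at the bottom. The log2 fold change of 0.50 (SE 0.44, 95% confidence interval -0.53 to 1.52) ranged from 0.20 without sgRosa 1 to 1.19 without sgRosa 2.

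**Figure D3:**
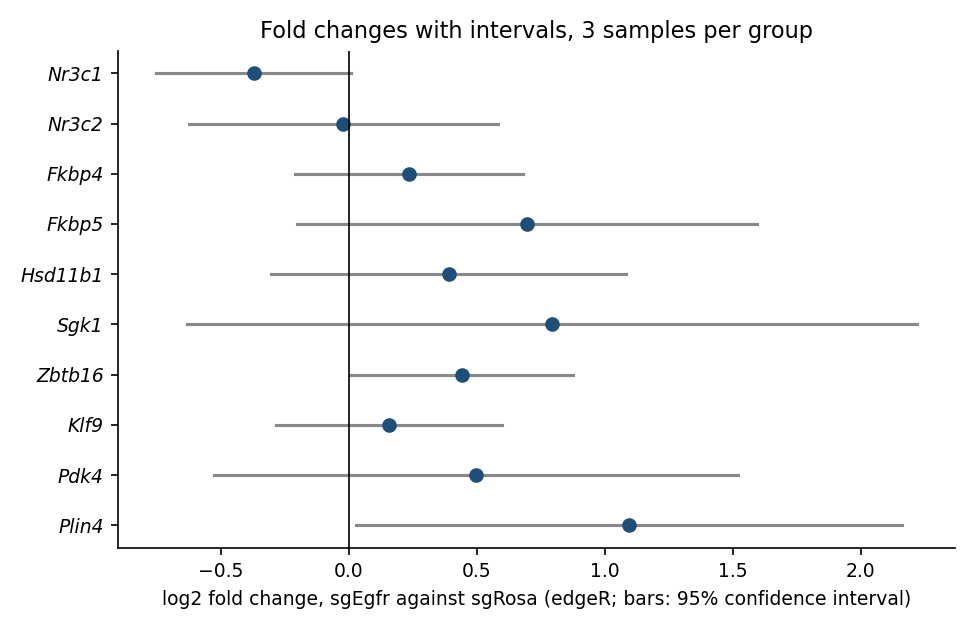
Log2 fold change (sgEgfr against sgRosa, points) and 95% confidence interval (bars) of the 10 genes from the edgeR fit, with no change at the vertical line. Intervals span 0 for 8 genes and start just above it for Zbtb16 (0.01) and Plin4 (0.03), before adjustment over all genes.

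Compared per kilobase of exon, the levels of the members spanned a wide range. The mean over the 6 samples was 200 CPM per kb for Sgk1, 66.7 for Fkbp4, 49.9 for Klf9 and 24.5 for Nr3c1. Lower levels were found for Zbtb16 (8.88), Hsd11b1 (7.72), Pdk4 (4.62), Nr3c2 (2.12), Plin4 (1.957) and Fkbp5 (1.37). Several neighbours in this order had overlapping ranges over the samples. The ranges of Fkbp4 (46.4 to 75.0) and Klf9 (40.8 to 61.3) overlapped, though Fkbp4 stood above Klf9 within each sample. Ranges also overlapped for Zbtb16 with Hsd11b1, Hsd11b1 with Pdk4, Pdk4 with Nr3c2, and Nr3c2, Plin4 and Fkbp5 with one another. For these other pairs the order changed between samples. Klf9 and Nr3c1 did not overlap, nor did Nr3c1 and Zbtb16. Sgk1 ranged from 33.3 to 303 CPM per kb, and in sgRosa 1 it was below both Fkbp4 and Klf9. These values use the exons of GENCODE M21, which may not be those the authors counted.

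The low values gathered in one control. Of the 10 members, 6 had their lowest level in sgRosa 1, as did 5 of the 6 targets, all but Fkbp5. Over all genes tested, 17.8% had their lowest level there. The sum of genes of tissue dissociation and heat shock (15 of 15 detected, among them Fos, Jun and Hspa1a) was also lowest in sgRosa 1, at 1823 CPM. It was 3666 and 2219 CPM in sgRosa 2 and 3+4 and 3173, 5562 and 4969 CPM in sgEgfr 1 to 3. Not every gene followed the sum, since Junb, Egr1, Atf3 and Nr4a1 were lowest in sgRosa 3+4. Of these 15 genes 14 had positive log2 fold changes, with a median of 0.78 and 0 called; the median was 1.26 without sgRosa 2. For both this sum and Sgk1, sgRosa 1 was lowest and sgEgfr 2 highest. Microglia markers (12 of 12 detected) ran from 172, again in sgRosa 1, to 341 summed CPM in sgRosa and from 217 to 474 in sgEgfr. Endothelial markers (12 of 12 detected) summed to 56.2 to 87.3 CPM in sgRosa and 83.1 to 102 CPM in sgEgfr, neuron markers (13 of 13) to 309 to 474 and 435 to 556 CPM, and fibroblast markers (7 of 7) to 69.8 to 148 and 150 to 248 CPM. Pericyte and smooth muscle markers (8 of 9 detected, Tagln at 0) ran from 642 to 706 and from 569 to 711 CPM. Oligodendrocyte precursor markers (9 of 9) were at 906 to 1486 and 1040 to 1670 CPM, ependymal and choroid plexus markers (9 of 9) at 56.6 to 382 and 40.6 to 972 CPM, and blood markers (9 of 9) at 3.94 to 623 and 11.3 to 817 CPM. The part of these cells and of handling in the members' values was not tested.

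**Figure D4:**
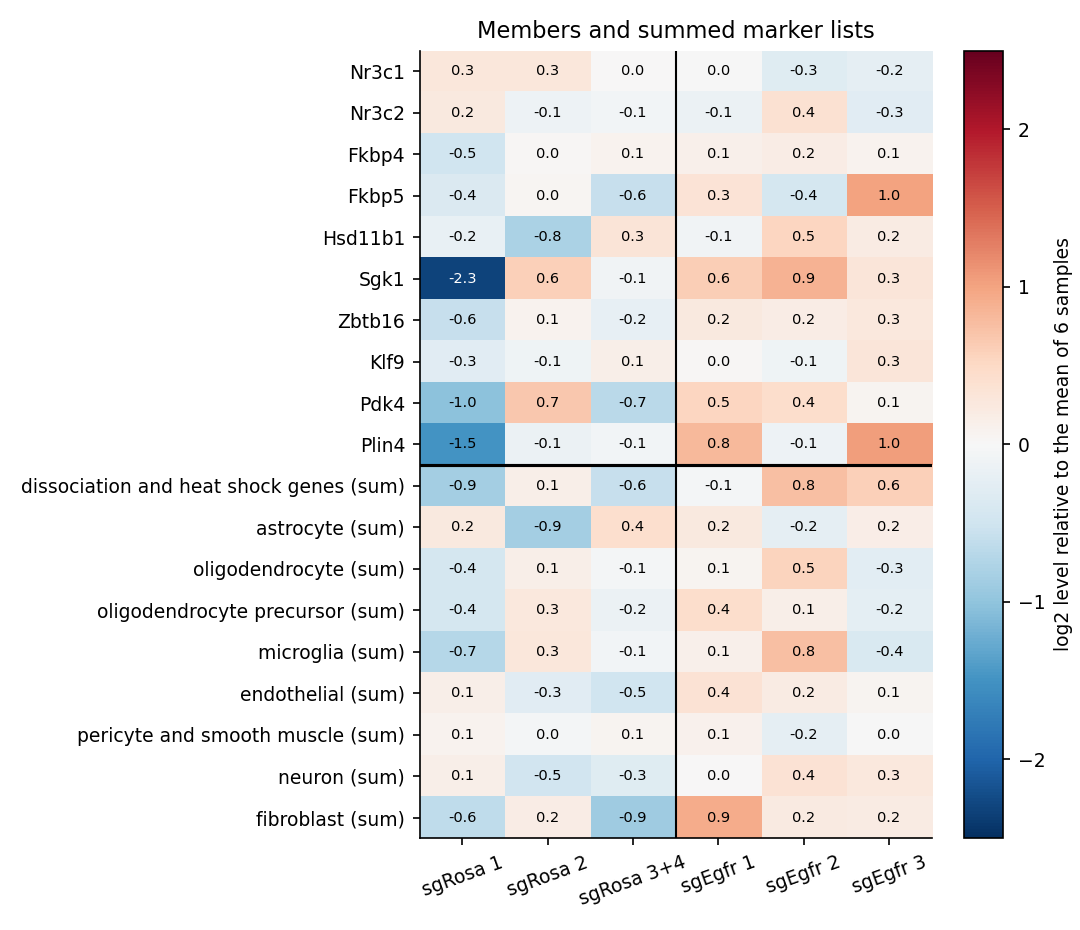
Log2 level of each member (rows above the line, TMM-scaled CPM) and of summed marker lists (rows below it, as CPM of library totals) relative to its mean over the 6 samples (columns, sgRosa left of the vertical line), red above and blue below it. Sgk1 is at -2.31 in sgRosa 1 and the dissociation and heat shock sum at -0.86.

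Other glucocorticoid response genes leaned the same way as the targets, without a call. Of 42 listed genes 39 were tested, and 30 had positive and 9 negative log2 fold changes, against 52.9% positive among all genes. The median was 0.32 and 0 were called. The dissociation and heat shock genes leaned this way too (14 of 15 positive), and the part of dissociation in these values was not tested. The smallest unadjusted p belonged to Rgcc, a cell cycle regulator, which stood at 23.5, 29.2 and 36.4 CPM in sgRosa and 50.5, 50.3 and 58.1 CPM in sgEgfr. Cdkn1a, the gene of the cell cycle inhibitor p21, stood at 14.5, 20.6 and 27.9 CPM in sgRosa and 31.0, 59.1 and 71.6 CPM in sgEgfr. For both genes the groups did not overlap, which held in this direction for 5 of the 39 with TMM scaling (3.76% of all genes) and for 3 as CPM of library totals (2.81% of all genes). Mfsd2a, a lipid transporter gene of brain vessels, was higher in every sgEgfr sample (35.1 to 51.4 CPM) than in the controls (13.97 to 32.2 CPM) with TMM scaling (log2 fold change 0.91, SE 0.31). As CPM of library totals its groups overlapped, with sgEgfr 2 (31.35) below sgRosa 3+4 (32.20). For Dusp1, the gene of a phosphatase of MAP kinases, the log2 fold change was 1.16 (SE 0.46) with overlapping groups.

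A pair of standard reporters of GR activity had overlapping groups. Tsc22d3 (GILZ, an anti-inflammatory mediator) stood at 300, 215 and 312 CPM in sgRosa and 319, 248 and 337 CPM in sgEgfr (log2 fold change 0.13, SE 0.21). Per1, a clock gene with a GR response element, stood at 27.6, 40.7 and 41.0 CPM in sgRosa and 46.9, 32.3 and 46.6 CPM in sgEgfr (log2 fold change 0.20, SE 0.22). Without sgRosa 1 the median of the list was 0.21. Without sgEgfr 3 it had 25 positive and 15 negative values among 40 tested, with a median of 0.16.

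The coregulators that receptors recruit on chromatin all had negative values. None of 11 had a positive log2 fold change (0 of 11, against 52.9% of all genes), the median was -0.26, and 0 were called. Nrip1, a ligand-dependent corepressor gene, stood at 49.4, 52.3 and 39.3 CPM in sgRosa and 31.3, 18.1 and 33.7 CPM in sgEgfr (log2 fold change -0.76, SE 0.25). Ncoa3, a coactivator gene, stood at 65.4, 105 and 47.8 CPM in sgRosa and 45.3, 46.3 and 44.1 CPM in sgEgfr (log2 fold change -0.69, SE 0.27). Smarca4, a chromatin remodelling ATPase, had -0.29 (SE 0.15), and Ncor1, a corepressor, -0.37 (SE 0.20). The groups did not overlap, with sgEgfr lower, for 5 of the 11 with TMM scaling (3.85% of all genes) and for 3 as CPM of library totals (4.05% of all genes). Each other scaling also gave 0 positive values, and leaving out sgRosa 1 or sgEgfr 1 gave 1.

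Genes of the chaperone complex that holds the receptor had small positive values for the most part. Of 12 genes 11 had positive log2 fold changes (against 52.9% of all genes), the median was 0.11 and 0 were called. Hsp90ab1, the constitutive HSP90 gene, stood at 817, 1174 and 1479 CPM in sgRosa and 1114, 1220 and 1332 CPM in sgEgfr. Dnajb1, an HSP40 co-chaperone that is also heat-inducible, had 0.81 (SE 0.48), with 626 CPM in sgEgfr 2 and 132 to 287 CPM elsewhere. Stip1, which passes clients from HSP70 to HSP90, had 0.30 (SE 0.23). St13, an HSP70-interacting protein gene, had 0.20 (SE 0.15). As CPM of library totals 10 of the 12 were positive, and 8 were when sgRosa 1 was left out (median 0.05). Leaving out sgRosa 3+4 gave a median of 0.24 and leaving out sgEgfr 2 one of 0.07. The list shares Hsp90aa1 and Dnajb1 with the dissociation and heat shock genes.

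**Figure D5:**
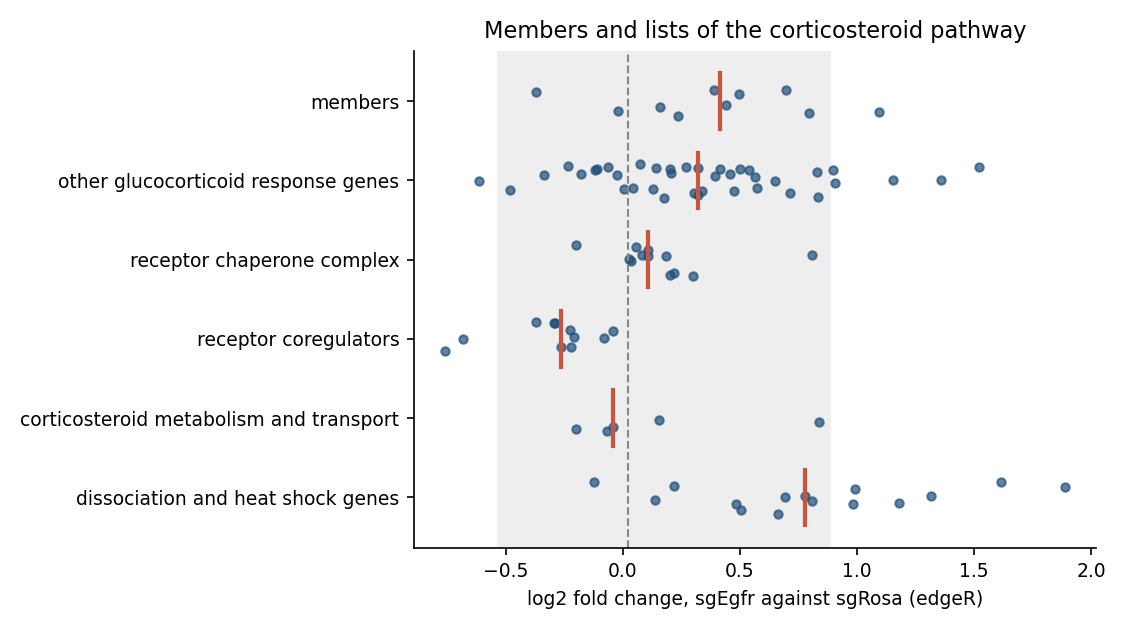
Log2 fold change (sgEgfr against sgRosa, edgeR) of each tested gene (points, jittered vertically) for the 10 members and 5 lists, with the median of each list (red line), the median of all 14936 genes (dashed line, 0.02) and their 5th to 95th percentile (grey band, -0.53 to 0.89). The medians are 0.42 for the members, 0.32 for other response genes, 0.11 for the chaperone complex, -0.26 for coregulators, -0.04 for steroid metabolism and 0.78 for dissociation and heat shock genes.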

How the data were processed

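Counts were deposited by the authors as whole numbers per gene, not normalised, in a table of the series and in 7 files that hold the same values. Per the submitters' processing notes, the build was mm10 and the tools included fastp 0.23.2, STAR 2.7.5c, featureCounts 2.0.1 and edgeR 3.42.4. The annotation, strand setting and treatment of multi-mapping reads are not given in the sources used here.

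The deposited counts were filtered with filterByExpr (minimum count 10, minimum total 15), scaled with TMM and tested with glmQLFTest in edgeR 4.0.16 (R 4.3.3), 3 samples against 3, with Benjamini-Hochberg adjustment over 14936 genes and a threshold of 0.05. The common coefficient of biological variation was 0.386. Per-gene CPM are relative to the scaled total of tested genes, and list sums to all counts. The receptor ratio (0.5 added to each count) had an exact permutation test over samples. The fit was tested on simulated data in which 200 genes changed by more than any member did here. That test does not show whether changes of the members' size would be found.

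The members, the 5 pathway and 10 marker lists and the summing of sgRosa 3 and 4 were chosen with earlier results of these data known. All members are named, with up to 4 genes of smallest unadjusted p per list described, Tsc22d3, Per1 and Egfr; Hsp90ab1, Abcb1a and the genes with too few counts or with promoter matches were named after their values were seen. Exon models came from GENCODE M21 and promoters from RefSeq, without chromosome 18. Alternatives were other scalings and filters, DESeq2 1.42.0, limma-voom (limma 3.58.1), a replicate block, 7 separate libraries and leaving out each sample; overlap as CPM of library totals and the span of Sgk1 among abundant genes were added after seeing the data. Figures used matplotlib 3.10.9.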

Additional observations from a re-analysis of the deposited data

How the results depend on the processing

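Of the 18 alternatives of the fit, each called 0 genes at an adjusted p under 0.05, with 236 to 960 at an unadjusted p under 0.05 (401 with the settings of the report); DESeq2 called 0, with 500. At a threshold of 0.1 edgeR called 0 genes and DESeq2 3. Of 180 values of members under these alternatives 3 had the opposite sign, all for Nr3c2, which ranged from -0.27 to 0.11 with each sample left out. The smallest adjusted p of a member was 0.738. The median of the members ranged from 0.24 (without sgRosa 1) to 0.46. The receptor ratio kept its negative sign, from -0.48 to -0.07 with each sample left out. Whether the numbers pair the samples was not settled. Deviations of same-numbered samples correlated at -0.11, 0.52 and 0.55 over genes. The values of 0.52 and 0.55 were the highest of any combination, while sgRosa 1 correlated best, though weakly, with sgEgfr 3 (0.08). With the replicate block 0 genes were called, with 705 at an unadjusted p under 0.05, Sgk1 had a log2 fold change of 1.15, and the difference of the receptor ratio was -0.33. Summed over the libraries, counts were lowest for Plin4 (49 to 460 per library), Pdk4 (47 to 454), Fkbp5 (52 to 551) and Nr3c2 (81 to 269).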
